A study of Mus musculus with 2 samples.

Results

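Genes that the liver switches on in fasting or under glucocorticoids were followed in an irradiated and a control mouse liver sample. They are Depp1, Igfbp1, Irs2, Pdk4, Angptl4, Ppargc1a, Fkbp5, Tsc22d3, Sgk1 and Tat, 10 of the 22180 genes measured. Each gene was read from the probe sets that the platform annotation gives exactly 1 gene symbol, keeping the brightest one where there were several. Every one of the 10 had a single such probe set. The genes were chosen by their role and with their irradiated minus control differences on these arrays known, so the differences are descriptions and none was tested.

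The irradiated sample came from a male C57BL/6 mouse liver, taken 5 weeks after 1 whole-body gamma dose of 6 Gy given at 4 weeks of age at 0.81 Gy per minute. The mice were anesthetized for the exposure. The control sample came from a male C57BL/6 liver of the same age, 9 weeks, with no treatment. C57BL/6 is an inbred laboratory strain, and per the labels all animals had free access to chow and water. The labels used here do not say how long before tissue collection the mice had last eaten, at what time of day the liver was taken, whether the controls were anesthetized, or whether RNA was pooled. Each group held 1 array, so no difference below has a replicate check, and the spread between animals is unknown. The number of arrays limits the precision.

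Between meals, insulin falls and glucagon and glucocorticoids take over the control of liver metabolism. Low insulin lets FoxO transcription factors enter the nucleus, where they switch on genes such as Igfbp1 and Irs2. Fatty acids released from fat activate the nuclear receptor PPARalpha, which raises Angptl4, Pdk4 and the enzymes of fat oxidation. Glucocorticoids act through their own nuclear receptor, whose classic targets include Fkbp5, Tsc22d3, Sgk1 and Tat. Many of these genes answer to more than 1 of the signals.

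By role, the values overlapped. The 3 FoxO and insulin genes were all lower in the irradiated sample, with log2 differences from -1.55 to -0.17. Of the 3 fasting metabolism genes, Angptl4 was lower by 0.80 on the log2 scale, and Ppargc1a and Pdk4 lay at -0.12 and 0.21. The 4 glucocorticoid genes lay between -0.21 and 0.30, with 3 of them above 0. All differences are irradiated minus control log2 RMA values, where RMA is a method that corrects, normalizes and summarises array probes.

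**Figure D1:**
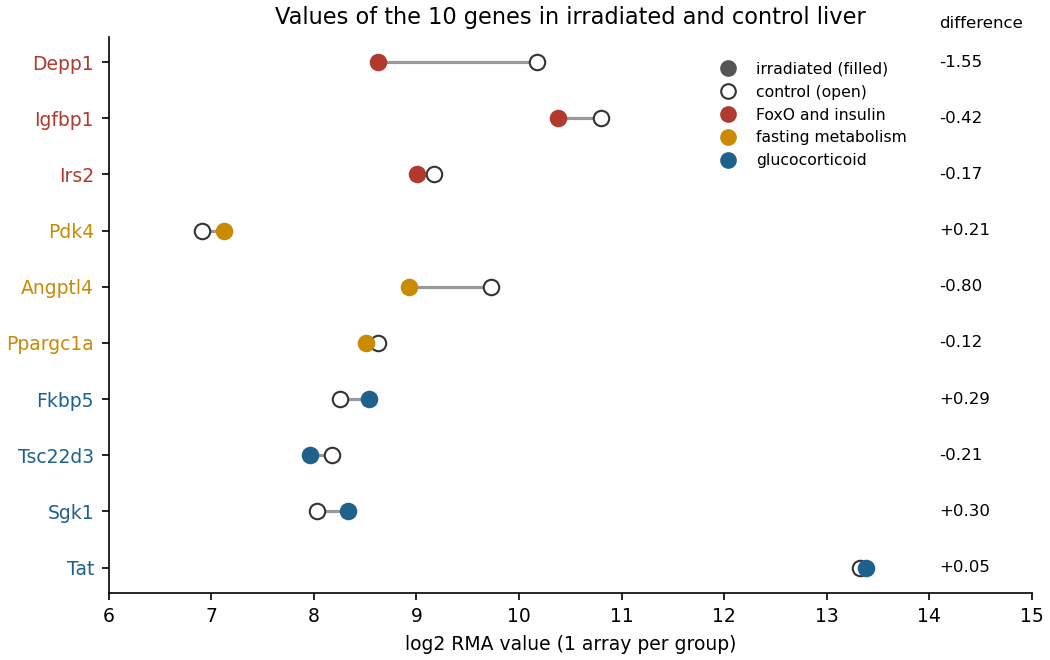
The log2 RMA value of each of the 10 genes on the irradiated array (filled) and the control array (open), 1 array per group, with the irradiated minus control difference at the right. Depp1 at -1.55 and Angptl4 at -0.80 have the widest gaps, and Tat at 0.05 has the narrowest.

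A gene was called expressed if it read at least 6.06 on either array, which is the median over the whole deposited table. This floor is a rank, not a measured background. It kept 13689 genes, and all 10 members passed it on both arrays. Of the 10, 2 were at least 1.5-fold lower, against 0.65% of expressed genes, and 0 were at least 1.5-fold higher, against 1.14%. At 2-fold, 1 member was lower, against 0.183% of expressed genes, and 0 were higher, against 0.321%. Since the members were chosen with these differences known, nothing is read from the contrast. The median difference was -0.14 over the 10 members and -0.00 over all expressed genes. The central 95% of expressed genes lay between -0.37 and 0.42, and 3 of the 10 members, Depp1, Angptl4 and Igfbp1, fell outside it.

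**Figure D2:**
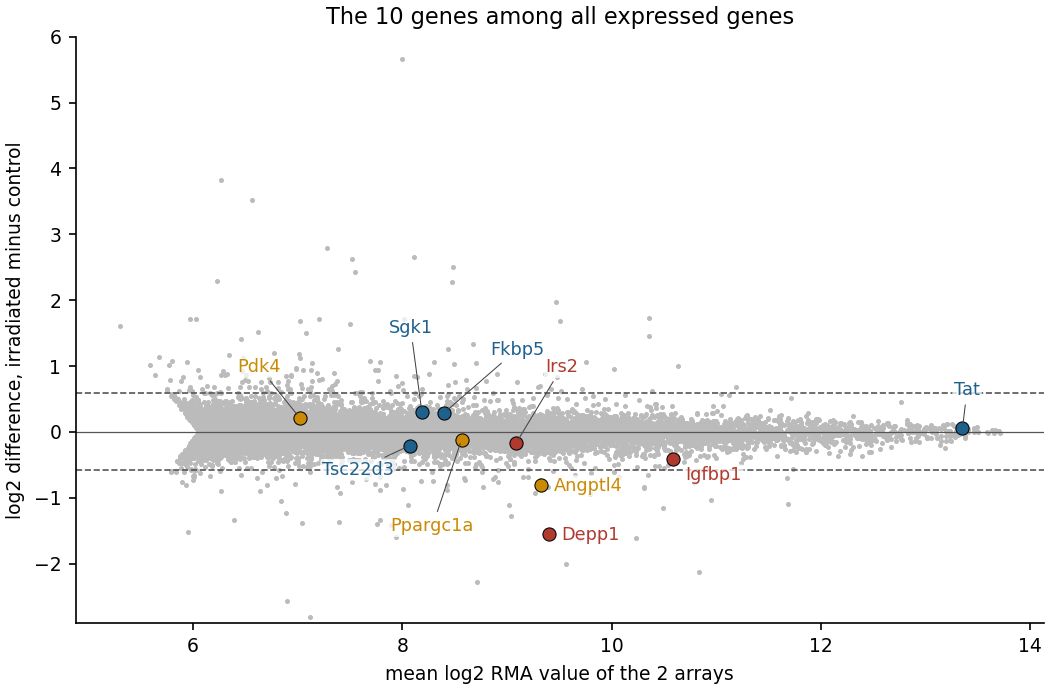
Log2 difference, irradiated minus control, against the mean log2 RMA value of the 2 arrays for the 13689 expressed genes (grey) and the 10 members (coloured by role as FoxO and insulin in red, fasting metabolism in ochre, glucocorticoid in blue). Dashed lines mark 1.5-fold. Depp1 and Angptl4 lie below the lower line, and the other 8 members lie between the lines.

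Depp1 encodes a small protein that FoxO factors induce and that has been linked to autophagy and oxidative stress in human cells. It read 8.63 on the irradiated array and 10.17 on the control array, a difference of -1.55, or 2.92-fold lower. It ranked 10 of the 13689 expressed genes, counted from the most negative difference. Among the 12739 expressed protein-coding genes it was at rank 3 from the lowest. Differences are wider among dim genes, so each member was also set beside the 1000 expressed genes nearest to it in mean level. The central 95% of the genes near Depp1 lay between -0.34 and 0.31, and 4 of the 1000, Depp1 included, differed by as much in either direction.

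Igfbp1 encodes a secreted protein that binds insulin-like growth factors, and insulin represses its transcription in liver. It read 10.38 in the irradiated sample and 10.80 in the control, a difference of -0.42, or 1.34-fold lower. It ranked 234 of 13689 from the lowest. Near its level the central 95% lay between -0.37 and 0.28, so Igfbp1 stood outside that range but short of 1.5-fold.

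Irs2 encodes an adaptor that passes the signal of the insulin receptor on to its kinases, and it is induced in liver when insulin is low. It read 9.00 in the irradiated sample and 9.17 in the control, a difference of -0.17. Among the 1000 genes nearest in level, 22.3% differed by as much, so Irs2 was inside the ordinary range of these arrays. A second probe set, annotated with Irs2 and another symbol, differed by 0.33 and is described at the end.

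Promoter letters, which had no part in the choice of genes, are shown for the FoxO and insulin genes because FoxO factors read short sites rich in adenine there. RefSeq promoter windows of build GRCm38.p6, from 250 bases before to 50 after each transcript start, were found for 9 of the 10 members, Angptl4 being not analysed here. They gave 16 windows, since Sgk1 and Tsc22d3 have several starts. Both strands were searched. The insulin response core CAAAACA was in the windows of Igfbp1 and Irs2, 2 of the 16 (12.5%), and in 6.28% of all 32851 windows. The sequences below are the bases before the start on the gene's own strand, 5′ to 3′, with the core in capitals.
Igfbp1, chr11:7197537-7197786, plus strand: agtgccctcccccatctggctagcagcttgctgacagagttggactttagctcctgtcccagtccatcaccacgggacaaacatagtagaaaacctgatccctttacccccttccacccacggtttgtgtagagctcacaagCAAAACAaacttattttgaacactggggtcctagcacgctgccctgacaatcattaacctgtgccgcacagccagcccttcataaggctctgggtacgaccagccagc
Irs2, chr8:11008930-11009029, minus strand: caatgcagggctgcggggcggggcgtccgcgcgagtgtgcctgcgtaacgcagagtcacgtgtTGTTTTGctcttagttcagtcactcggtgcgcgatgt
Depp1, chr6:116650434-116650683, plus strand: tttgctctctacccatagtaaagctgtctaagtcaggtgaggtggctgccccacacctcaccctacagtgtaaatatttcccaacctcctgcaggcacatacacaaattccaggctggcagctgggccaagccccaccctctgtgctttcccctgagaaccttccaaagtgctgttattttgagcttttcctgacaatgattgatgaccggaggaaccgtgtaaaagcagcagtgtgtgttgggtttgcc

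The Igfbp1 core begins at -108, counted from the transcript start, and runs into a stretch of adenines and thymines. The Irs2 core begins at -37 and lies on the opposite strand, so it reads TGTTTTG here. The Depp1 sequence is all in lower case because neither this core nor the FoxO site GTAAACA was found in it. GTAAACA was in 0 of the 16 member windows and in 3.65% of all windows. Its longer form GTAAACAA, which contains it, was in 0 of 16 and in 1.23%. Each of these sites was searched in a fixed spelling, so variant spellings were not counted, in Depp1 or elsewhere. A match shows only that the letters are present, and the windows leave out more distant elements.

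The paralogs of these genes did not form a block. Igfbp2, another binding protein that rises in fasting liver, read 10.66 in the irradiated sample and 11.03 in the control, a difference of -0.37 beside the -0.42 of Igfbp1. The other 5 Igfbp genes, Igfbp3 to Igfbp7, lay between -0.12 and 0.39. Irs1, the sister adaptor of Irs2, read 8.77 in the irradiated sample and 8.55 in the control, a difference of 0.22 and of opposite sign to Irs2. Irs1 had 2 probe sets with 1 symbol, and with the mean of all probe sets the Irs paralog median was 0.09. None of the 6 Igfbp paralogs or Irs1 reached 1.5-fold, and Irs4 was below the floor on both arrays.

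**Figure D3:**
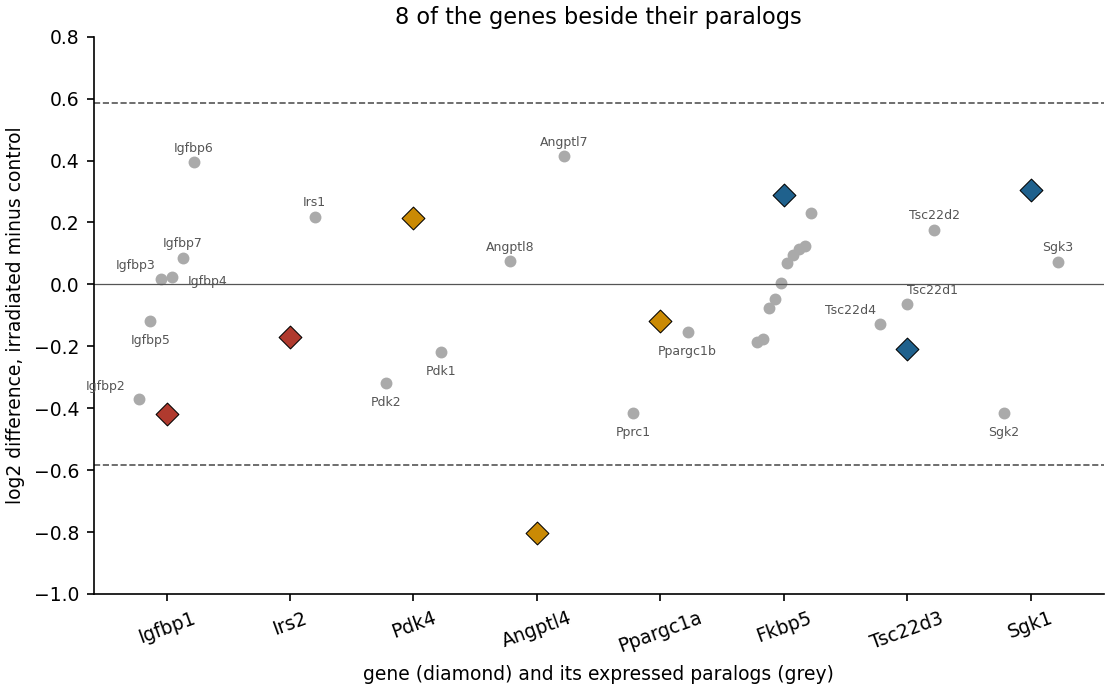
Log2 difference, irradiated minus control, of 8 of the genes (diamonds, coloured by role as FoxO and insulin in red, fasting metabolism in ochre, glucocorticoid in blue) and of their expressed paralogs (grey points, named except for Fkbp). Dashed lines mark 1.5-fold. Angptl4 at -0.80 lies below the lower line, and no paralog shown crosses either line.

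Angptl4 encodes a secreted inhibitor of lipoprotein lipase, which directs circulating triglyceride away from tissues in fasting. It read 8.92 in the irradiated sample and 9.73 in the control, a difference of -0.80, or 1.74-fold lower. It ranked 42 of 13689 expressed genes from the lowest, and 18 of 12739 protein-coding ones. Near its level the central 95% lay between -0.33 and 0.30, and 9 of the 1000 genes differed by as much.

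Of 6 listed paralogs, 3 had a probe set with 1 symbol, and these 3 did not share that gap. With any probe set that names the gene, the median of the expressed paralogs was 0.07, against 0.24. Angptl8, a partner in lipase control that feeding and insulin induce, read 12.15 in the irradiated sample and 12.08 in the control. Angptl7 had a difference of 0.41, with a control value of 5.92 under the floor. Angptl1 was below the floor on both arrays.

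Pdk4 encodes a kinase that shuts off pyruvate dehydrogenase, the entry of glucose carbon into the citric acid cycle, and it is a classic fasting gene. It read 7.12 in the irradiated sample and 6.91 in the control, a difference of 0.21 and of opposite sign to Angptl4. Among the genes nearest in level, 25.6% differed by as much. Its paralogs Pdk1 and Pdk2 were at -0.22 and -0.32, while Pdk3 was below the floor on both arrays. The 8 subunits and phosphatases of the pyruvate dehydrogenase complex had a median of -0.08, from -0.17 for the phosphatase gene Pdp2 to 0.31 for its paralog Pdp1, and 0 reached 1.5-fold.

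Ppargc1a encodes PGC-1alpha, a coactivator that raises gluconeogenic and mitochondrial genes in fasting liver. It read 8.51 in the irradiated sample and 8.62 in the control, a difference of -0.12, and 43.7% of the genes nearest in level differed by as much. Its paralogs Ppargc1b and Pprc1 were at -0.15 and -0.42.

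Fkbp5 encodes a co-chaperone that lowers the affinity of the glucocorticoid receptor, and the receptor induces it in turn. It read 8.54 in the irradiated sample and 8.25 in the control, a difference of 0.29, or 1.22-fold higher. Near its level the central 95% lay between -0.36 and 0.40, and 100 of the 1000 genes differed by as much. Its 10 expressed paralogs lay between -0.19 and 0.23, with Fkbp4, a co-chaperone of the same receptor, at 0.07.

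Sgk1 encodes a kinase induced by glucocorticoids, mineralocorticoids and cell stress. It read 8.34 in the irradiated sample and 8.03 in the control, a difference of 0.30, the highest of the 10 members. Near its level the central 95% lay between -0.35 and 0.35, and 7.2% of genes differed by as much. The paralogs Sgk2 and Sgk3 were at -0.42 and 0.07.

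Tsc22d3 encodes GILZ, a mediator of the anti-inflammatory action of glucocorticoids. It read 7.97 in the irradiated sample and 8.17 in the control, a difference of -0.21, the only 1 of the 4 glucocorticoid members below 0. Among the genes nearest in level 20.5% differed by as much. Its paralogs Tsc22d1, Tsc22d2 and Tsc22d4 were at -0.06, 0.18 and -0.13. Tsc22d1 had 2 probe sets with 1 symbol, and with the mean of all probe sets the median of these paralogs was 0.09, against -0.06.

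Tat encodes tyrosine aminotransferase, which starts tyrosine breakdown and has long served as the model glucocorticoid-induced liver enzyme. It read 13.38 in the irradiated sample and 13.33 in the control, a difference of 0.05, the smallest of the 10. The 5 measured enzymes linked to it, of 7 listed, were all below 0, as were 50.3% of all expressed genes. They ran from -0.34 for the aspartate aminotransferase gene Got1 to -0.01 for Got2. Hpd, the next enzyme of the pathway, was at -0.20. None of the 5 reached 1.5-fold.

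The full glucocorticoid element, in which the arms AGAACA and TGTTCT face each other across 3 bases, is shown because 1 of the 16 member windows held it, against 3 of all 32851 windows (0.00913%). The window belongs to the fifth of the 6 Sgk1 starts in the table, and the element begins at -189. The bases before that start are given 5′ to 3′ in build GRCm38.p6, with the element in capitals.
Sgk1, chr10:21993640-21993889, plus strand: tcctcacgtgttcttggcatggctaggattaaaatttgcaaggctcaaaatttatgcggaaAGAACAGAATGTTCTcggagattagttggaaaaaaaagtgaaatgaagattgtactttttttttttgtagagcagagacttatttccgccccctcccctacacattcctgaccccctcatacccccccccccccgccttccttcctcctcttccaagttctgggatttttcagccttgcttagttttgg

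The single arm AGAACA, which is part of the full element, was in 4 of 16 member windows (25.0%), all of Sgk1 or Tsc22d3, and in 19.0% of all windows. The Tat and Fkbp5 windows held neither form. The cAMP core TGACG, a part of the element through which glucagon acts, was in 3 member windows (18.8%), of Ppargc1a, Sgk1 and Tsc22d3, and in 20.8% of all windows. The full cAMP element TGACGTCA, which contains it, and the PPAR direct repeat, AGGTCA in 2 copies with 1 base between them, were each in 0 of the 16, against 1.79% and 0.0396% of all windows. Which start the liver uses was not measured by these probe sets.

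**Figure D4:**
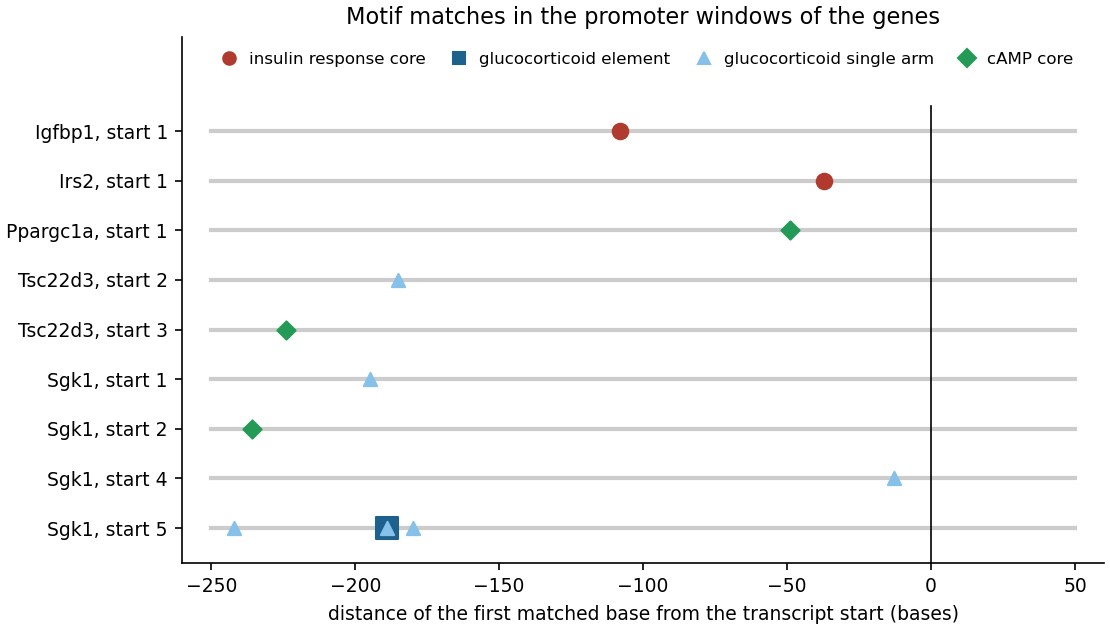
Position of each motif match, in bases from the transcript start, in the 9 of 16 member windows that held any. Starts are numbered in the order of the RefSeq table, grey bars span 250 bases before to 50 after the start, and the triangles on and just right of the square are the arms that make up the full glucocorticoid element of Sgk1 at start 5.

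Further genes of the same pathways were read from lists drawn up by reported role, some of which share genes. Of 29 expressed FoxO factors and FoxO-regulated genes, 19 were below 0, with a median of -0.03, against 50.3% below 0 and a median of -0.00 over all expressed genes. Foxo1, the main FoxO factor of liver, read 9.56 in the irradiated sample and 9.52 in the control, and Foxo3 read 8.77 on both arrays. The gluconeogenic FoxO targets G6pc and Pck1 were at -0.10 and 0.06. In that list 1 gene was at least 1.5-fold higher and 0 as much lower, against 1.14% and 0.65% of all expressed genes. The higher one was the transcriptional repressor gene Bcl6, at 9.16 in the irradiated sample and 8.57 in the control. No other gene of that list was as low as Depp1, the lowest being the redox gene Txnip, at 11.01 in the irradiated sample and 11.47 in the control.

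Of 23 expressed genes of insulin signalling, 12 were below 0 (52.2%, against 50.3% of all expressed genes). Their median was -0.02, with 0 past 1.5-fold in either direction. Insr, the insulin receptor gene, read 10.31 in the irradiated sample and 10.48 in the control, a difference of -0.18. Of 20 expressed genes that feeding or insulin induces, 14 were below 0 (70.0%, against the same 50.3%), with a median of -0.04 and 0 past 1.5-fold. Srebf1, a lipogenic transcription factor gene, was at -0.09.

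Of 31 expressed genes of the PPARalpha list 24 were below 0 (77.4%, against 50.3% of all expressed genes), with a median of -0.12. At 1.5-fold, 1 was lower and 0 higher, against 0.65% and 1.14% of all expressed genes. The lower one was the pantetheinase gene Vnn1, at 9.49 in the irradiated sample and 10.11 in the control. Ppara itself, which encodes the receptor, was at -0.15, and Cpt1a, the gate of mitochondrial fat oxidation, at -0.09. Fgf21, a fasting hormone made by the liver, read 6.24 in the irradiated sample and 6.39 in the control, close to the floor. Angptl4 had the sign of most genes of the list, and Pdk4 did not.

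In the glucagon and cAMP response list, 15 of 25 expressed genes lay above 0 and the median was 0.10. The 10 below 0 made up 40.0%, against 50.3% of all expressed genes. At 1.5-fold, 3 were higher and 0 lower, against 1.14% and 0.65% of all expressed genes. The 3 were the immediate early gene Fos, at 7.83 in the irradiated sample and 6.33 in the control, the stress factor gene Atf3 at 1.03 and the orphan receptor gene Nr4a1 at 0.70. These 3 also answer to growth factors and stress. Gcgr, the glucagon receptor gene, was at -0.09, and Creb3l3, a fasting transcription factor gene of liver, at -0.04.

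In the glucocorticoid list, 20 of 29 expressed genes lay above 0 and the median was 0.09. The 9 below 0 made up 31.0%, against 50.3% of all expressed genes. At 1.5-fold, 4 were higher and 1 lower, against 1.14% and 0.65% of all expressed genes. The stress gene Gadd45g was at 11.22 in the irradiated sample and 9.49 in the control, and the cell cycle inhibitor gene Cdkn1a at 8.87 in the irradiated sample and 7.16 in the control. The acute phase gene Lcn2 was at 1.08. Ddit4, named outside the rule after its value was seen, was at 0.60. As background, Cdkn1a and Ddit4 are also p53 targets and Lcn2 is also induced by inflammatory cytokines. Arrdc3, an arrestin-like gene, was the lower one, at 10.77 in the irradiated sample and 11.45 in the control. Nr3c1, which encodes the glucocorticoid receptor, read 10.42 in the irradiated sample and 10.35 in the control, and Hsd11b1, whose enzyme makes the active hormone in liver, was at -0.19. Klf15 and Per1, both direct glucocorticoid targets, were at -0.21 and 0.11.

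**Figure D5:**
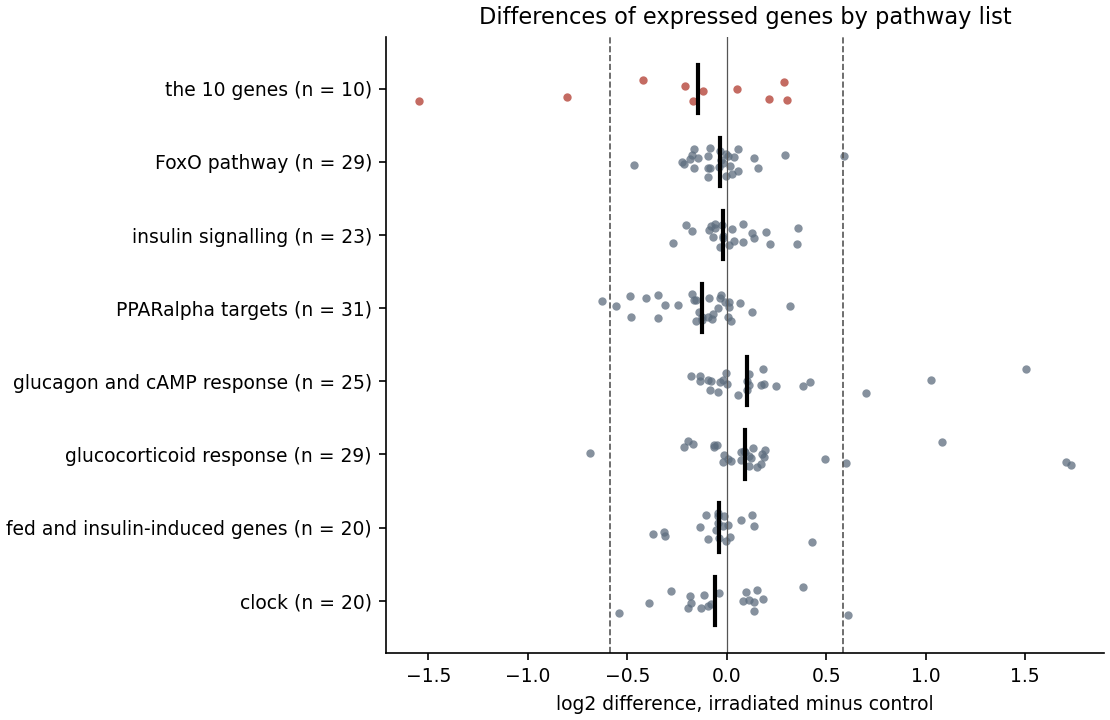
Log2 differences, irradiated minus control, of the expressed genes of each list (points, spread vertically at random so that they can be seen), with the list median as a black bar and 1.5-fold as dashed lines. The 10 genes have a median of -0.14, PPARalpha targets -0.12, and glucocorticoid and cAMP response genes 0.09 and 0.10. The members are in none of the other lists.

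Other measures of the same 2 arrays are set beside these values, and their part in the differences was not tested. Clock genes, which set the daily rhythm of several fasting genes, had a median of -0.06 over 20 expressed genes, 9 above 0 and 11 below. At 1.5-fold, 1 was higher and 0 lower, against 1.14% and 0.65% of all expressed genes. Arntl at 0.61 and Nr1d1 at -0.54 were the highest and lowest of the 20. All 10 hepatocyte markers were expressed and lay between -0.05 and 0.09, with Alb at 0.01. The summed linear value of these 10 was 81884 in the irradiated sample and 81169 in the control. In bulk RNA, fewer cells of a type and less RNA per cell cannot be told apart.

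Over all expressed genes, 50.3% were below 0 and 1.14% at least 1.5-fold higher, as background for the marker counts below. Of 6 bile duct markers measured, Cftr and Cldn7 were below the floor on both arrays. The other 4 were above 0, and 2 of them by at least 1.5-fold, the duct keratin gene Krt19 at 1.20 and the adhesion gene Epcam at 0.75. All 6 together summed to 707 in the irradiated sample and 500.01 in the control. Of 6 pancreas and gut markers measured, Cpa1 was below the floor on both arrays and 3 of the other 5 were at least 1.5-fold higher. Reg1, a secreted lectin gene, read 8.18 in the irradiated sample and 4.35 in the control, where it was below the floor. The digestive protease gene Ctrb1 read 9.43 in the irradiated sample and 6.78 in the control, and the gut lectin gene Lgals4 was at 1.06. The fatty acid binding gene Fabp2, which weighs most in the sum of the 6, was at -0.16, and that sum was 2688 in the irradiated sample and 1719 in the control. Of 8 stellate markers 2 were at least 1.5-fold higher, and both are also smooth muscle genes. Acta2 read 10.45 in the irradiated sample and 8.48 in the control, and Des 8.24 in the irradiated sample and 7.29 in the control. The sum of the 8 was 8637 in the irradiated sample and 6866 in the control. Dcn, at 0.14, was the brightest of the 8, and Acta2 had the largest difference. Macrophage markers, with 7 of 8 above 0 and 0 past 1.5-fold, summed to 6264 in the irradiated sample and 5343 in the control. Adipocytes are rich in Angptl4, and of their markers Adipoq, Cidea and Lep were below the floor on both arrays. The expressed ones, Plin1, Fabp4 and Retn, were at -0.21, 0.13 and 0.29. The 6 measured summed to 669 in the irradiated sample and 635 in the control, and Fabp4 weighs most in that sum. Of 6 skeletal muscle markers, Ckm, Myh4 and Mylpf were below the floor on both arrays. The expressed ones, Acta1, Tnni2 and Tnnt3, were at -0.09, 0.12 and 0.15. Lymphocyte and endothelial markers had 0 members past 1.5-fold.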

How the data were processed

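The deposited table held log2 values of 41345 probe sets on 2 arrays. Per the submitters' processing notes the authors used RMA in Affymetrix Expression Console 1.3.1. The log2 base is not written in the file and was read from the range, 1.46 to 13.9. The arrays had medians of 6.07 (irradiated) and 6.05 (control). Such values cannot show a change in total RNA per cell. Biotin-labelled cDNA was made from 300 ng of RNA, per the labels' protocols.

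Gene symbols came from GEO's platform annotation, where 23521 probe sets had 1 symbol, 1814 several and 16010 none. Promoter sequences and gene classes came from RefSeq tables (GRCm38.p6). No source used here gives the build of the array. Differences were computed with Python 3.11.15, numpy 2.4.6, pandas 2.3.3 and statsmodels 0.14.6. With 1 array per group no test was possible, and genes were counted at 1.5-fold and 2-fold. The procedure was tested on simulated arrays with planted changes larger than that of any member. That checks the code and says nothing about differences of the sizes reported here.

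The members and lists were chosen with earlier results of these data known. Named were all members, their paralogs, in each list the 4 genes, or fewer, that differed most and by 1.5-fold or more, and 18 further genes listed by name, of which 2 are not reported here. Alternatives changed the scaling (centring, loess with span 0.3, quantile), added 32 on the linear scale, and changed the probe set choice, the floor, the fold size and the promoter window.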

Additional observations from a re-analysis of the deposited data

Results flagged for a closer look

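A second probe set near Irs2, 17498951, carries the symbols Irs2 and 9530052E02Rik and so did not stand for the gene. It read 6.75 in the irradiated sample and 6.42 in the control, a difference of 0.33, higher than the control where the Irs2 probe set with 1 symbol was lower at -0.17. Which of the transcripts it measures was not tested.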

How the results depend on the processing

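No paired analysis was possible because there were only 2 arrays, 1 irradiated and 1 control, and for the same reason no array could be left out. Under 7 alternatives each, all 70 member differences kept their sign and their side of 1.5-fold. Some of these could not change a member: the mean of probe sets, any probe set naming the gene, and raising low values to the floor. Each member had 1 probe set with 1 symbol and read above the floor, and the second Irs2 probe set was dimmer. Depp1 ranged from -1.57 to -1.47, Angptl4 from -0.82 to -0.76 and Igfbp1 from -0.44 to -0.40. These are reruns of the same 2 arrays and do not measure support. At 2-fold 1 member was lower in place of 2. Over all expressed genes, the number at least 1.5-fold higher was 95 with 32 added, 272 with no floor, 70 with the floor at the 75th percentile and 44 at 2-fold, against 156. The number lower was 197 with no floor and 25 at 2-fold, against 89. Of 206 list medians under alternatives, 12 moved by 0.1 or more and 2 turned sign, both of the Tsc22d paralogs, from 3 genes: 0.09 with the mean of all probe sets and 0.06 with the 75th percentile floor, against -0.06. Motif counts over member genes were equal in the 250 bases before the start alone. How far each probe set stands above background was not measured, which limits the dimmer members such as Pdk4.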
